A study of Mus musculus with 6 samples.

Results

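Genes for cytokines and cytokine receptors of type 2 immunity were examined in thymic tuft cells. They were chosen by name, 10 of the 55471 genes in the expression table, and each symbol matched 1 Ensembl gene. Il25, Tslp, Il33 and Il10 encode ligands, and Il17rb, Il17ra, Il4ra, Il13ra1, Il2rg and Crlf2 encode receptor chains. All 10 were among the 19416 genes with a mean of at least 10 normalized counts over the 6 libraries, the genes that were tested.

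Tuft cells are chemosensory epithelial cells that use a taste-like signalling cascade. In the mouse intestine they are a main source of IL-25, which acts on innate lymphoid cells through a receptor made of IL-17RB and IL-17RA. Those lymphoid cells answer with IL-13, which acts on epithelium through IL-4Rα paired with IL-13Rα1, while IL-4 can also use IL-4Rα paired with the common gamma chain, the product of Il2rg. TSLP and IL-33 are other epithelial cytokines that start type 2 responses, and Crlf2 encodes the chain that, with the IL-7 receptor chain, binds TSLP. IL-10 is an anti-inflammatory cytokine known best from lymphoid and myeloid cells.

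The tuft cells came from mouse thymus and were sorted on the surface protein L1CAM into SMART-seq lysis buffer. All mice carried Ikzf1fl/fl, floxed alleles of the gene for the zinc finger factor Ikaros. Mice without Foxn1-Cre (genotype given as WT) and mice with it (KO) gave 3 samples each. Foxn1-Cre is driven by a gene of thymic epithelium in general, so deletion need not be limited to tuft cells; the age of the mice is not stated in the labels. The table names its libraries Het and Ko, each numbered 1 to 3. Ko was read as the KO genotype and Het as WT by elimination, and no library could be tied to a single sample. Nothing says that each library is a separate mouse, so the p-values below speak only of the spread among these libraries, which may be technical. Values given as 3 in a row are libraries 1, 2 and 3 of a group, in that order.

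Library totals ran from 12238400 to 31435800 reads, to 6 digits. Ikzf1 read 301, 187 and 273 normalized counts in Het and 1572, 1463 and 1717 in Ko libraries, higher in every Ko library (log2 fold change 2.66 ± 0.30 SE, limma adjusted p = 0.0105). Counted over the whole gene, its RNA was thus not lower in the Ko libraries. Exons were not counted apart, so deletion of the floxed part was not tested. Directions are therefore given between libraries as named. All 10 tuft cell markers, among them Pou2f3, Trpm5, Avil and Dclk1, were above 0 in all 6 libraries, with summed levels of 105994 to 151909.8 in Het and 128699 to 146233 in Ko libraries. Gng13 of that list was lower in every Ko library (log2 fold change -0.70, limma adjusted p = 0.0504). It read 27998, 29638 and 25381 in Het and 14323, 17695 and 19502 in Ko libraries. The other markers of the list had positive fold changes and overlapped between the groups. In sorted bulk RNA, fewer cells of a type and less RNA per cell cannot be told apart.

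Between Ko and Het libraries, 0 of the 10 genes passed the test (limma, adjusted p under 0.05 over all tested genes), against a background of 0.814% of tested genes called, 0.288% higher and 0.525% lower in Ko. These are 56 genes higher and 102 lower, or 15 and 56 where libraries were scaled to their tuft cell markers. An unadjusted p under 0.05 was reached by 3 of the 10, Il13ra1, Il2rg and Il10, and by 13.6% of all tested genes. On reads recovered from the table, edgeR called 0 of the 10 (background 0.386%) and DESeq2 called 2, Il13ra1 and Il2rg (background 6.93%). The groups did not overlap for 3 of the 10, against 18.4% of tested genes. Of those, Il13ra1 was higher in Ko libraries (background 8.57%) and Il10 and Il17ra were lower (background 9.86%). Fold changes were positive for 4 genes and negative for 6, with a median of -0.24 on the log2 scale beside -0.05 over all tested genes.

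**Figure D1:**
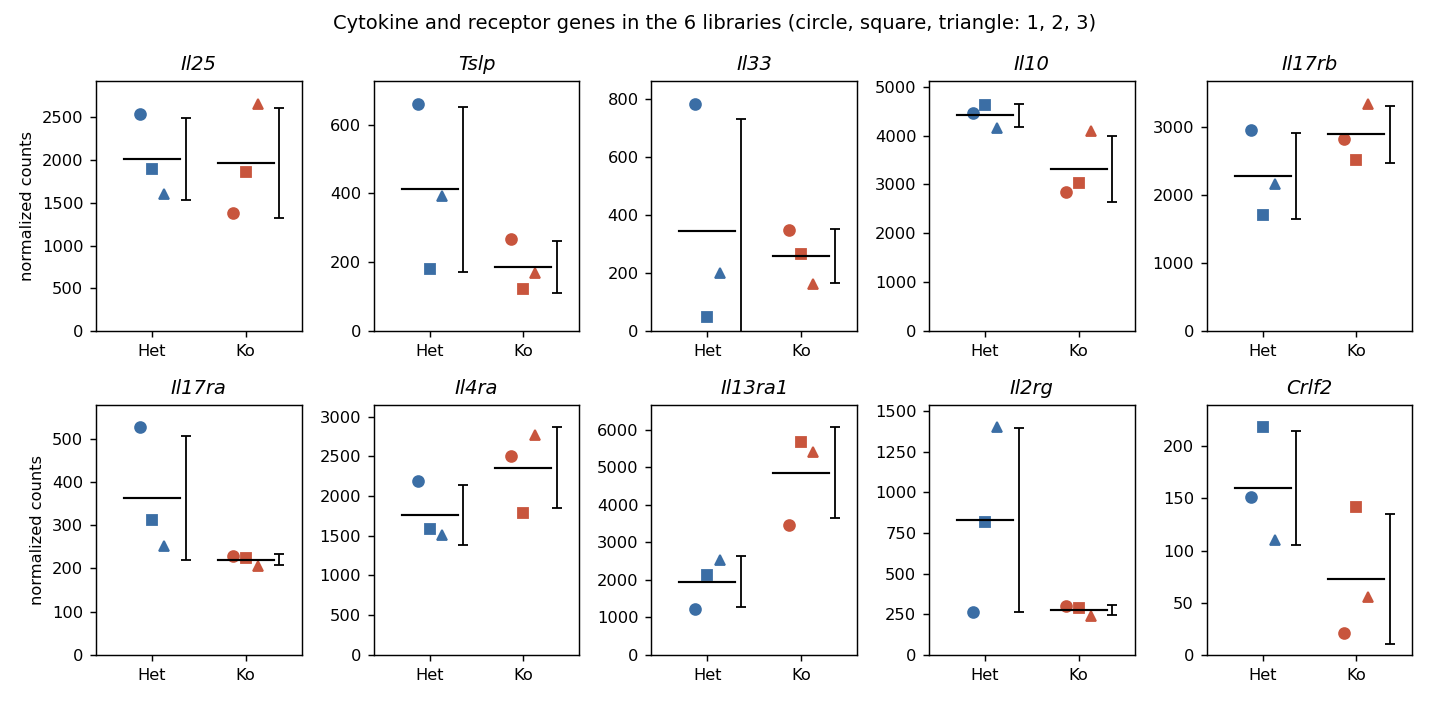
Normalized counts (y axis, linear, from 0) of the 10 genes in each Het and Ko library, with the mean as a line and the SD (n = 3) as a bar; the lower end of the Het bar of Il33 lies below 0 and is not drawn. The 3 Ko points lie above the 3 Het points for Il13ra1 and below them for Il10 and Il17ra.

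Il25 (ENSMUSG00000040770, chromosome 14), the cytokine tuft cells are best known for, had nearly equal means in the groups. It read 2538, 1903 and 1603 normalized counts in Het libraries and 1382, 1857 and 2660.0 in Ko libraries. The lowest and the highest library were both Ko libraries, so the Het values lay inside the Ko range. Means were 2015 ± 477 and 1966 ± 646 (SD, n = 3 each) from 8329 and 4993 reads. A log2 fold change of -0.06 resulted, with a 95% interval of -0.68 to 0.56 (limma adjusted p = 0.954), which turned to 0.12 without Het1 and 0.17 without Ko1.

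Il10 (ENSMUSG00000016529, chromosome 1) was the most abundant ligand transcript. Het libraries read 4464, 4621 and 4157 normalized counts and Ko libraries 2843, 3036 and 4095. The Het values lay close together, and the highest Ko library came just under the lowest Het library. With means of 4414 ± 236 and 3325 ± 674 (SD, n = 3 each), the difference did not pass (log2 fold change -0.43 ± 0.18 SE, limma adjusted p = 0.341). The authors' deposited table gives an adjusted p of 0.282 for Il10.

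Tslp (ENSMUSG00000024379, chromosome 18), whose product acts on dendritic cells and lymphocytes, was lower than Il10 and Il25. Its values were 660.5, 181 and 394 normalized counts in Het and 269, 121 and 170.5 in Ko libraries. Het2 lay below Ko1, so the groups overlapped, and Het1 was the highest library. The log2 fold change, -1.02 ± 0.56 SE, did not pass (limma adjusted p = 0.474) and was -0.59 without Het1. A lincRNA gene lies opposite to Tslp in the GENCODE M21 annotation, and whether the counting used strand is not stated.

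Il33 (ENSMUSG00000024810, chromosome 19), encoding an alarmin of the IL-1 family, varied most among Het libraries. It read 784, 48.3 and 199 normalized counts in Het and 349, 266 and 162 in Ko libraries. Every Ko value lay within the Het range, and the Het coefficient of variation was 113%. The Ko mean of 259 ± 93.7 was below the Het mean of 344 ± 388 (SD, n = 3 each), while the log2 fold change was positive, 0.33 ± 0.87 SE (limma adjusted p = 0.913); it was 1.32 without Het1 and -0.68 without Het2. Het1, the highest library for Il33, also had the highest sum of 10 myeloid and dendritic cell markers, 53814 against 4256 and 9142 in the other Het libraries and 877 to 2999 in Ko, most of it Lyz2. Itgam read 309.8, 139 and 167 in Het and 39.1, 60.1 and 0 in Ko libraries, Adgre1 7.27, 193 and 50.5 and 4.12, 2.07 and 0, Csf1r 4.47, 165 and 59.2 and 26.8, 1.04 and 27.2, and Itgax 4.30 or less in all. Other genes of that list had higher means in Ko libraries. C1qb read 139, 59.6 and 104 in Het and 258, 20.7 and 276 in Ko libraries, and C1qa 25.2, 14.2 and 0 and 0, 1.04 and 58.7. Flt3 and Siglech did so at 18.5 or less in every library. The part of such cells in the Il33 values was not tested.

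The receptor for IL-25 joins a ligand-specific chain, IL-17RB, to the shared chain IL-17RA. Il17rb (ENSMUSG00000015966, chromosome 14) read 2955, 1712 and 2160.0 normalized counts in Het libraries and 2828, 2508 and 3340.4 in Ko libraries. Het1 lay among the Ko libraries and the other Het libraries below them. Its log2 fold change was 0.37 (95% interval -0.15 to 0.89, limma adjusted p = 0.541). Exons of Il17rb share 141 bases with Actr8 on the opposite strand (GENCODE M21), which read 1766 to 2692 in Het and 1703 to 2516 in Ko libraries, and reads there cannot be told apart without strand.

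Il17ra (ENSMUSG00000002897, chromosome 6), which also serves the receptors of IL-17A and IL-17F, was low. It read 526, 312 and 253 normalized counts in Het and 229, 225 and 206 in Ko libraries. Every Ko library was below every Het library, and the Ko values lay close together (364 ± 144 against 220.2 ± 12.3, SD, n = 3 each). The difference did not pass (log2 fold change -0.65 ± 0.43 SE, limma adjusted p = 0.565) and was -0.35 without Het1. Per kb of exon, the level of Il17rb was 13.1, 12.8 and 20.0 times that of Il17ra in Het libraries and 28.8, 26.1 and 37.8 times in Ko libraries. Those ratios did not overlap between the groups, while other ratios given below did. All were formed after the values were seen and carry no test.

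Il13ra1 (ENSMUSG00000017057, chromosome X), encoding the chain that binds IL-13 and pairs with IL-4Rα, showed the widest separation relative to its error among the 10 genes. Het libraries read 1215, 2123 and 2524 normalized counts and Ko libraries 3470.3, 5680.1 and 5410.2. The lowest Ko library was above the highest Het library. Means were 1954 ± 670.3 and 4854 ± 1205 (SD, n = 3 each), a 2.48-fold difference from 6912 and 12633 reads. At a log2 fold change of 1.34 ± 0.29 SE, the limma adjusted p of 0.0760 missed the threshold of 0.05. Over the alternatives the fold change ran from 1.03 to 1.57 on the log2 scale and the adjusted p from 3.41e-04 to 0.213. Robust limma (adjusted p = 0.0402) and DESeq2 (3.41e-04) called it, and edgeR did not (0.120). The authors' deposited table gives a log2 fold change of 1.31 and an adjusted p of 0.00833, in a table with 8.19% of genes called.

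Il4ra (ENSMUSG00000030748, chromosome 7) encodes the chain common to the IL-4 and IL-13 receptors. Its values were 2195, 1591 and 1506 normalized counts in Het and 2502, 1791 and 2773 in Ko libraries. Ko2 lay below Het1, so the groups overlapped. With a log2 fold change of 0.41 (95% interval -0.12 to 0.95), the difference did not pass (limma adjusted p = 0.503). The antisense gene Gm44876 overlaps its exons in the annotation and read 1.03 or less in every library.

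Il2rg (ENSMUSG00000031304, chromosome X), the common gamma chain of several interleukin receptors, read 267, 815 and 1398 normalized counts in Het and 300.4, 290.1 and 242 in Ko libraries. Het2 and Het3 lay above every Ko library, and Het1 lay among them. Means of 827 ± 566 and 278 ± 31.1 (SD, n = 3 each) gave a log2 fold change of -1.28 ± 0.55 SE that did not pass (limma adjusted p = 0.341). It was -1.95 without Het1 and -0.75 without Het3. DESeq2 gave an adjusted p of 0.0459, and the authors' deposited table gives 0.0739. The sum of 6 markers of Aire-stage medullary epithelium was likewise high in Het2 and Het3, 49804 and 46922, and lower in Het1, 11425, and in Ko libraries, 6897 to 9674. Most of it was Ubd. Cd52 and Cd80 were also highest in Het2 and Het3. Fezf2 differed less, 980, 1691 and 1159 in Het and 824, 1050 and 427 in Ko libraries. Tnfrsf11a was highest in Ko1, 603, 825 and 821 in Het and 935, 398 and 723 in Ko libraries. Aire itself read 147, 1536 and 1656 in Het and 52.5, 441 and 96.0 in Ko libraries, and the part of such cells in the Il2rg values was not tested. Markers of T cells and thymocytes, which use Il2rg, summed to 85.9 to 444 in Het and 155 to 399.6 in Ko libraries over 10 genes, with Cd8a at 5.14 or less. Markers of natural killer and invariant T cells, 8 genes, summed to 30.2, 234 and 205 in Het and 41.4 to 74.5 in Ko libraries. Their sum was high in Het2 and Het3, as Il2rg was, most of it Tbx21 and Il4 and, in Het2 alone, Nkg7. Tbx21 read 1.12, 96.6 and 159 in Het and 5.14, 3.11 and 2.86 in Ko libraries. Nkg7 read 0.559, 95.1 and 0 and 2.06, 4.14 and 21.5. Zbtb16 went the other way, higher in every Ko library, 1.68, 0.710 and 1.44 against 14.4, 3.11 and 11.5, from 5 and 25 reads. Ncr1 read 0.559 or less and Eomes 10.6 or less. Of the innate lymphoid cell markers, Il7r, Gata3, Il13 and Areg were also highest in Het2 and Het3. Il7r read 1.68, 89.5 and 92.3 in Het and 1.03, 2.07 and 0 in Ko libraries. Gata3 read 23.5, 141 and 104 and 61.7, 9.32 and 8.59. Others of that list ran differently. Thy1 (74.4, 38.3 and 5.77 in Het) and Arg1 (778, 370 and 356) were highest in Het1. Il1rl1 (33.0, 61.1 and 26.0) and Rora (1052, 1134 and 811) were lowest in Het3 among Het libraries. The part of these cells was not tested. Gm20489, annotated over 728 exon bases of Il2rg on the same strand, read 0 in every library.

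Il13ra1 and Il2rg encode alternative partners of IL-4Rα, and neither passed the test. Per kb of exon, the level of Il13ra1 was 2.93, 1.67 and 1.16 times that of Il2rg in Het libraries and 7.43, 12.6 and 14.4 times in Ko libraries. The lowest Ko ratio was above the highest Het ratio. Other ratios formed in the same way overlapped between the groups. Il4ra over Il13ra1 was 0.369 to 1.12 in Het and 0.195 to 0.446 in Ko libraries. Il4ra over Il2rg was 0.428 to 3.27 and 2.46 to 4.56, and Il25 over Il17rb 2.59 to 3.87 and 1.70 to 2.77. Il10 over Il25 was 1.43 to 2.11 and 1.25 to 1.67, and Il13ra1 over Il17rb 0.411 to 1.24 and 1.23 to 2.26. All these ratios were formed after the values were seen and carry no test.

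The sequences upstream of Il13ra1 and Il2rg, the genes for the partners of IL-4Rα, are shown with that of Crlf2, which holds the core motif of Ikaros. They are the 250 bases before the annotated start, on the strand of the gene, from RefSeq on GRCm38.p6, a build other than the GRCm39 of the study. Capitals mark a match, on either strand, to TGGGAA, the Ikaros core, or to TTCNNNGAA or TTCNNNNGAA, spacings bound by STAT proteins.
Il13ra1, chrX:36111858-36112107, plus strand: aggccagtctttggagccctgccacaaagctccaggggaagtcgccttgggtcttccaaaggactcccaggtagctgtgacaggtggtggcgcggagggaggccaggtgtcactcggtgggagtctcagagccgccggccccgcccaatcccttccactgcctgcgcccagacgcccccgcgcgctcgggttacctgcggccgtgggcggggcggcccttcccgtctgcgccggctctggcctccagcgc
Il2rg, chrX:101268256-101268505, minus strand: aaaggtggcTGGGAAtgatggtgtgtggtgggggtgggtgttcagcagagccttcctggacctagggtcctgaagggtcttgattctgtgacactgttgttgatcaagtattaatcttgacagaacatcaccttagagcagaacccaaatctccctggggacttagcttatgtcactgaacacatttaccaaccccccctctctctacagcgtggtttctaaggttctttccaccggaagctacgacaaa
Crlf2, chr5:109558994-109559243, minus strand: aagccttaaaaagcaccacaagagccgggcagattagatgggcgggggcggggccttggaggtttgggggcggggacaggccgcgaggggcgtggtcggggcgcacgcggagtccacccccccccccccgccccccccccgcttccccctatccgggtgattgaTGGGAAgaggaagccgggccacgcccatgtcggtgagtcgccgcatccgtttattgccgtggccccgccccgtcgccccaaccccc
The window of Il13ra1 held none of the 3 motifs. TGGGAA began 241 bases before the start of Il2rg and 86 bases before that of Crlf2, and 21.6% of 32536 distinct windows of this length hold it. The table has entries for 6 of the 10 genes, and the windows of Il4ra and Il17rb held no match. Of the 2 starts listed for Il33, one held TTCNNNNGAA 36 bases upstream (5.89% of windows) and the other TGGGAA 129 bases upstream. TTCNNNGAA, in 7.04% of windows, was in none of them. A match describes letters and shows no binding.

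Crlf2 (ENSMUSG00000033467, chromosome 5) had the lowest mean in normalized counts of the 10 genes, in both groups. It read 152, 218 and 109.7 in Het and 20.6, 142 and 55.9 in Ko libraries. Ko2 lay within the Het range and the other Ko libraries below it. The log2 fold change, -1.47 ± 0.82 SE, did not pass (limma adjusted p = 0.483); it was -2.14 without Ko2 and -0.78 without Ko1. Il7r, for the other chain of the TSLP receptor, read 1.68, 89.5 and 92.3 in Het and 1.03, 2.07 and 0 in Ko libraries, so that Het1 was as low as the Ko libraries. That difference rested on 193 reads against 3, a ratio of rates of 43.6 (95% counting interval 14.7 to 213), and did not pass (limma adjusted p = 0.357). DESeq2 gave 0.0314, and the authors' deposited table gives an adjusted p of 0.0115 for Il7r.

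**Figure D2:**
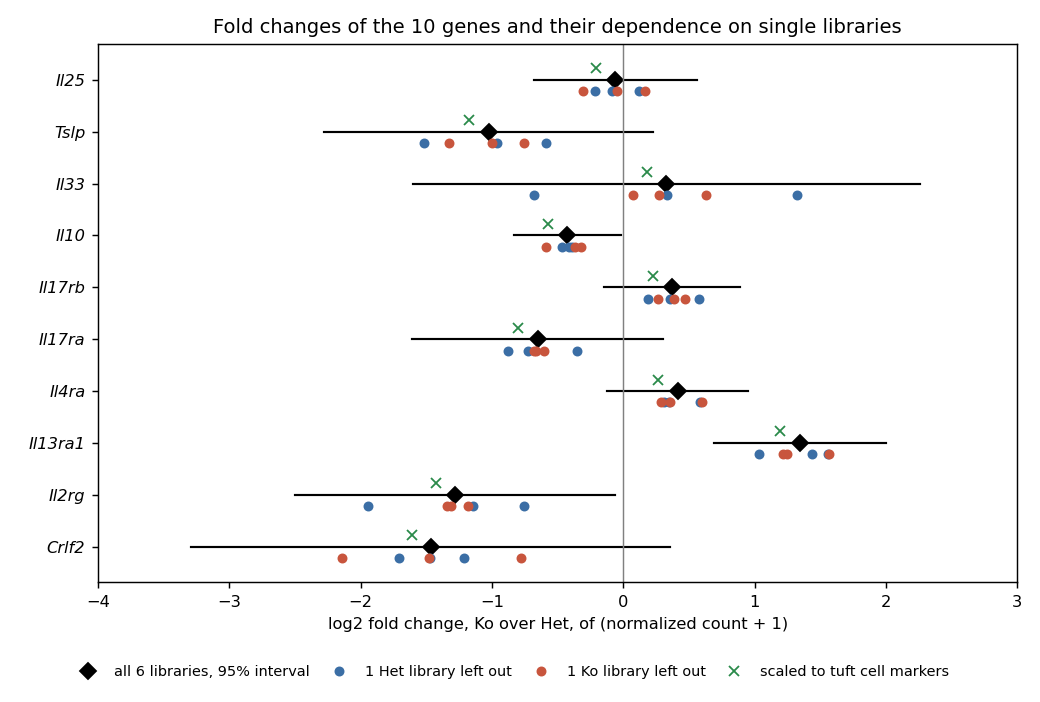
Log2 fold change of each gene (x axis, Ko over Het, of normalized count + 1) with its 95% interval from limma, beside values with 1 library left out and with libraries scaled to tuft cell markers. The values of Il13ra1 without a library stay above 1, with its interval reaching down to 0.69, while Il25 and Il33 have values on both sides of 0.

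Levels were compared between genes as normalized counts per kb of exon, with exon lengths from GENCODE M21. In Het libraries the mean levels per kb ran in the order Il10 (3369), Il25 (1893), Il17rb (614), Il13ra1 (526), Il2rg (346), Tslp (309), Il4ra (294), Il33 (119), Crlf2 (107) and Il17ra (42.0). Il10 and Il25, Il25 and Il17rb, and Crlf2 and Il17ra were the neighbours whose libraries did not overlap. In Ko libraries the order of mean levels per kb was Il10 (2538), Il25 (1848), Il13ra1 (1308), Il17rb (780.2), Il4ra (392), Tslp (140.3), Il2rg (116), Il33 (89.7), Crlf2 (48.7) and Il17ra (25.4). There the libraries did not overlap between Il13ra1 and Il17rb, Il17rb and Il4ra, and Il4ra and Tslp. In each group the other 6 of 9 neighbouring pairs overlapped.

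**Figure D3:**
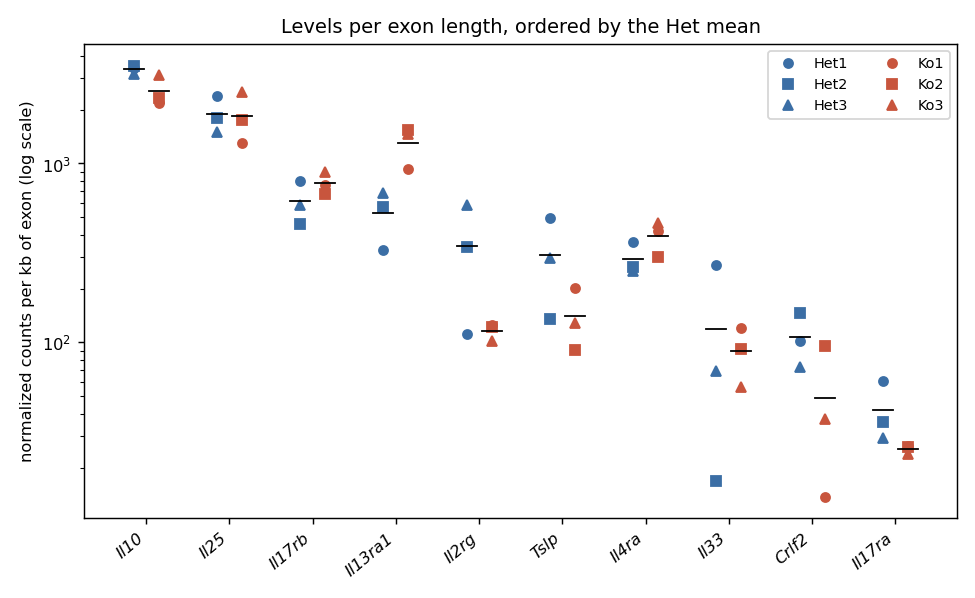
Normalized counts per kb of exon (y axis, log scale) for each gene in each library, ordered by the Het mean, with group means as lines. Il10 and Il25 lie highest in both groups, and the mean of Il13ra1 is 526 in Het and 1308 in Ko libraries.

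Other genes of these pathways came from 7 lists with 81 genes, 67 of them tested. Of these, 1 rose and 0 fell in Ko libraries, against 0.288% and 0.525% of all tested genes, and the groups did not overlap for 14, against 18.4%. The median log2 fold change was -0.04 beside -0.05 over all tested genes. An unadjusted p under 0.05 was reached by 21 of the 67 (13.6% of all tested genes), edgeR called 0 (0.386%) and DESeq2 called 7 (6.93%). The gene that rose, Ptgs1, encodes the prostaglandin synthase COX-1. It read 5139, 3196 and 3105 normalized counts in Het and 9152, 8585 and 9872 in Ko libraries, with every Ko library above every Het library (log2 fold change 1.31 ± 0.20 SE, limma adjusted p = 0.0264; authors' deposited table, adjusted p = 2.12e-04). The call was lost in edgeR (adjusted p = 0.0728) and on leaving out any library but Het1. Of the 9 other tuft cell effectors, 7 fold changes were positive, with a median of 0.40 on the log2 scale. Fold changes of the tuft cell markers were also positive, apart from Gng13. Hpgds, a prostaglandin D synthase gene, stood at 4442 ± 280.4 and 6888 ± 572 (limma adjusted p = 0.0860; authors' deposited table, adjusted p = 0.00182), and Lrmp at 21858 ± 3383 and 28674 ± 1972 (SD, n = 3 each; 0.216).

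In IL-4 and IL-13 signalling, 0 of 18 tested genes were called, 6 being positive and 12 negative, with a median of -0.12. Socs3, a feedback inhibitor of JAK-STAT signalling, read 1419.9, 701 and 779 normalized counts in Het and 2468, 2481 and 2448 in Ko libraries. The Ko libraries were nearly equal and all above the Het libraries (log2 fold change 1.42 ± 0.28 SE, limma adjusted p = 0.0513). The authors' deposited table gives 0.00218 as its adjusted p. Irs1 and Irs2, for adaptors recruited by IL-4Rα, had log2 fold changes of 2.75 ± 1.07 and 0.78 ± 0.31 SE (limma adjusted p = 0.299 and 0.306). Stat6, Il13 and Il13ra2 were chosen for their role after their values were seen. Stat6, the factor activated by IL-4 and IL-13, read 758 to 1112 in Het and 701 to 1114 in Ko libraries. Il13 read 3.91, 38.3 and 111 and 1.03, 0 and 2.86, from 138 and 3 reads (limma adjusted p = 0.335), and the decoy receptor gene Il13ra2 read 19.0, 49.7 and 1066 and 1.03, 12.4 and 84.5 (0.507).

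In the IL-25 and IL-17 family, 0 of 10 tested genes were called, 3 being positive and 7 negative, with a median of -0.39. Il17c, for an epithelial cytokine, read 97.3, 64.6 and 80.8 normalized counts in Het and 1.03, 0 and 1.43 in Ko libraries. Its Ko libraries held 2 reads in all against 321, a ratio of rates of 109 (95% counting interval 29.9 to 902). It did not pass (limma adjusted p = 0.0819), while the authors' deposited table gives 3.83e-06. Il17re, for the chain that binds IL-17C, read 447, 432 and 789 in Het and 173, 249 and 244 in Ko libraries (limma adjusted p = 0.192). For Il17re the adjusted p was 0.0519 with DESeq2 on recovered reads and is 0.0108 in the authors' deposited table. Neither gene overlapped between the groups, and both had their lower values in Ko libraries. Zc3h12a, encoding the RNase Regnase-1, had a log2 fold change of 0.67 ± 0.26 SE (limma adjusted p = 0.303).

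Of the IL-10 family and its receptors, 0 of 10 tested genes were called, 5 being positive and 5 negative, with a median of -0.03. Stat3, which carries IL-10 signals, read 2959, 3452 and 3785 normalized counts in Het and 5304, 5041 and 6824 in Ko libraries. Every Ko library was above every Het library (log2 fold change 0.75 ± 0.18 SE, limma adjusted p = 0.0993; authors' deposited table, adjusted p = 0.0131). Ifnlr1, for the interferon lambda receptor chain, stood at 83.4 ± 6.03 and 227 ± 54.9 (SD, n = 3 each, limma adjusted p = 0.296). For Ifnlr1 the adjusted p was 0.154 with DESeq2 on recovered reads and is 0.00184 in the authors' deposited table. Il10rb and Il10ra, for the chains of the IL-10 receptor, were chosen after their values were seen. Il10rb read 707 to 1532 in Het and 1202 to 1487 in Ko libraries, and Il10ra 1.68 to 140.0 and 2.07 to 7.20.

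For TSLP signalling 0 of 10 tested genes were called (6 positive, 4 negative, median 0.12), and for IL-33 signalling 0 of 11 (6 positive, 5 negative, median 0.12). Socs2, for another feedback inhibitor, and Stat5b had log2 fold changes of 0.49 ± 0.21 and 0.58 ± 0.38 SE (limma adjusted p = 0.342 and 0.564). Irak1, for a kinase of IL-1 family receptors, stood at 1777 ± 229 and 2657 ± 213 with no overlap (SD, n = 3 each, limma adjusted p = 0.214). For Irak1 the adjusted p was 0.0859 with DESeq2 on recovered reads and is 0.0383 in the authors' deposited table. Its relative Irak3 read 5.03, 31.2 and 0 in Het and 15.4, 194 and 281 in Ko libraries (0.305), and the adaptor gene Myd88 stood at 728 ± 562 and 1103 ± 259 (limma adjusted p = 0.483).

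In the common gamma chain family, 0 of 11 tested genes were called, 6 being positive and 5 negative, with a median of 0.10. Il7, a cytokine that thymic epithelium supplies to thymocytes, read 1568, 1337 and 1795 normalized counts in Het and 2767, 3153 and 2404 in Ko libraries. The groups did not overlap (log2 fold change 0.83 ± 0.21 SE, limma adjusted p = 0.111), and the authors' deposited table gives 0.00523 as its adjusted p. Il15 had its lower mean in Ko libraries, 305 ± 242 against 866 ± 379.6 (SD, n = 3 each, limma adjusted p = 0.309), with Ko1 above Het1. The authors' deposited table, with 8.19% of genes called, did not call Il15 (adjusted p = 0.257). Of other pathway genes named above, it did not call Lrmp (0.235), Irs1 (0.280), Irs2 (0.340) or Zc3h12a (0.244). Nor did it call Socs2 (0.128), Stat5b (0.412), Irak3 (0.0825) or Myd88 (0.634).

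**Figure D4:**
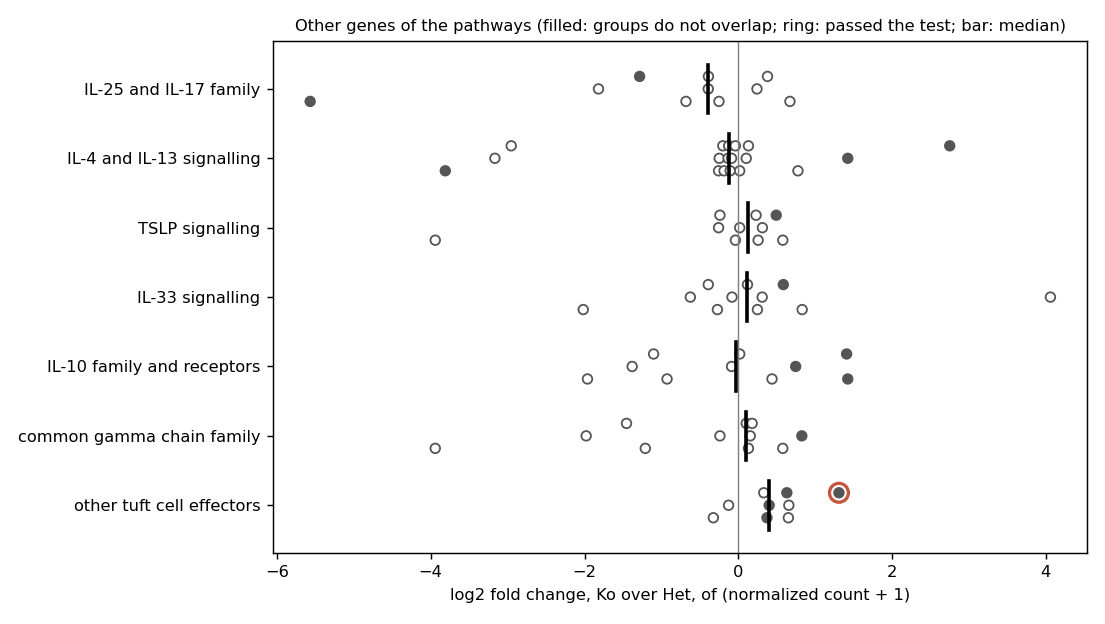
Log2 fold changes (x axis, Ko over Het, of normalized count + 1) of the tested genes of each list; filled points have groups that do not overlap, the ring marks Ptgs1, which passed the test, and bars are medians. List medians lie between -0.39 and 0.40.

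Among 13842 genes with a mean of at least 50, those closest to Il25 in log2 level over the 6 libraries were Supt3 (Pearson r = 0.996, Spearman rho = 1), Tnfrsf8 (0.992, 0.943), Fbxo11 (0.978, 0.943), Tap1 (0.976, 0.886) and Apbb2 (0.976, 0.886). Tnfrsf8, encoding CD30, read 2535, 1980.1 and 1695 normalized counts in Het and 1573, 1940.3 and 2462 in Ko libraries, lowest in Ko1 like Il25. Closest to Il17rb were Il16 (r = 0.995, rho = 1), Lmbr1 (0.991, 1), Gm47586 (0.990, 1), Cdc42ep1 (0.988, 0.943) and Atrip (0.986, 0.943). Il16, for a chemoattractant cytokine, read 448, 77.4 and 137 in Het and 393, 278 and 715 in Ko libraries. An r of 0.95 was reached by 13 genes with Il25 and 52 with Il17rb; these are descriptions of 6 libraries that share their scaling.

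Markers of other cells that the sort could hold were summed over fixed lists, and their part in the results was not tested. Innate lymphoid cell markers, which include Il7r and Il13, summed to 2444 to 3403 in Het and 1185 to 1253 in Ko libraries over 10 genes, most of it Rora, Areg and Arg1, with Il5 at 2.06 or less and Klrg1 at 0.559, 0.710 and 50.5 in Het and 0, 1.04 and 0 in Ko libraries. Areg and Il13 of the innate lymphoid list were lower in every Ko library. Areg read 475, 1530 and 1061 in Het and 224, 191 and 191 in Ko libraries (limma adjusted p = 0.0596, DESeq2 2.29e-05). Mast cell and basophil markers summed to 3476 to 5473 and 1957 to 2673 over 8 genes, most of it Kit and Hdc, with Mcpt4 and Fcer1a at 1.44 or less. Kit was lower in every Ko library (limma adjusted p = 0.327, DESeq2 0.252). Cpa3 of that list read 91.7, 0 and 113 in Het and 0, 0 and 1.43 in Ko libraries, and Mcpt8 0, 0.710 and 231 and 0, 0 and 0. B cell markers summed to 2381 to 3513 and 5142 to 5912 over 8 genes, most of it Cd79b. Cd79b was higher in every Ko library (limma adjusted p = 0.0433, DESeq2 7.62e-05). Others of that list had lower means in Ko libraries, Ighm with 529.6 ± 395 and 255 ± 171, Cd79a with 39.5 ± 59.4 and 1.51 ± 0.515, and Pax5 with 43.1 ± 19.3 and 23.6 ± 26.8 (SD, n = 3 each). Fibroblast markers summed to 926 to 1523 in Het and 911 to 13509 in Ko libraries over 7 genes, highest in Ko2. Endothelial markers summed to 1772 to 2681 and 2001 to 2628 over 6 genes, most of it Tek. Of that list only Cdh5 did not overlap between the groups (limma adjusted p = 0.255, DESeq2 0.0733). It read 17.3, 16.3 and 4.33 in Het and 132, 125 and 44.4 in Ko libraries. Cortical epithelial markers summed to 5477 to 31854 and 6724 to 10167 over 6 genes, most of it Tbata and Ccl25. There only Foxn1 did not overlap (limma adjusted p = 0.162, DESeq2 0.0286). It read 240, 442 and 328 in Het and 110, 108 and 85.9 in Ko libraries. Keratinocyte-like markers summed to 8362 to 20794 and 11711 to 25739.9 over 7 genes, most of it Krtdap. There only Ivl did not overlap (limma adjusted p = 0.0655, DESeq2 3.53e-09). It read 234, 1123 and 69.3 and 8.23, 2.07 and 0.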

How the data were processed

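Thymic tuft cell RNA was sequenced in 6 samples, 3 per genotype. The submitters' processing notes name STAR 2.7.9a, GRCm39 and DESeq2; the read counter, annotation release and strandedness were not stated. The deposited signal holds gene counts scaled by a factor for each library. Division by the value of 1 read (0.559 to 1.44) gave whole reads, within 0.01, for 100% of values above 0; counting intervals cover counting error only. The authors' deposited table holds, per the file headers, the mean signal, the log2 fold change, the Wald score and raw and adjusted p-values of each gene.

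Symbols matched 55144 of 55471 identifiers. Genes with a mean of at least 10 were tested on log2(normalized count + 1), which understates changes of low genes, with limma 3.58.1 in R 4.3.3 (trend, two-sided, Benjamini-Hochberg at 0.05) and genotype as the only term. An exact permutation test of 3 against 3 libraries cannot go below p = 0.10. Alternatives were pseudocounts of 0.5 and 5, a minimum mean of 50 or none, scaling by TMM, by library total and by tuft markers, robust limma, edgeR 4.0.16 and DESeq2 1.42.0 on recovered reads (75 and 1151 genes called), a block by column number and leaving out each library. The tests were checked on simulated data. The 10 genes and all lists were chosen with earlier results of these data known. Named were the 10 genes, called pathway genes, the 3 smallest p in each list, and the 5 genes most like Il25 and Il17rb.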

Additional observations from a re-analysis of the deposited data

How the results depend on the processing

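Of the 10 genes, 0 were called, with 3 at an unadjusted p under 0.05. Robust limma called 1 (Il13ra1), the replicate block by column number 1 (Il13ra1, adjusted p = 0.0317), edgeR 0 and DESeq2 2 (Il13ra1 and Il2rg); leaving out any library gave 0 to 0. All genes called numbered 158, and 71 (15 higher, 56 lower, against 56 and 102) with tuft marker scaling, which moved the median log2 fold change of all genes from -0.05 to -0.20, 239 with robust limma, 75 with edgeR, 1151 with DESeq2 and 87 with the replicate block. They numbered 0 to 116 when 1 library was left out, with 106 without Het1, 14 without Het2, 0 without Het3 (2080 at an unadjusted p under 0.05), 116 without Ko1, 56 without Ko2 and 50 without Ko3. Pathway genes called numbered 1, and 2 with a pseudocount of 5, with a mean of at least 50 and with robust limma (Socs3 being the added gene in each), 0 with edgeR (18 at an unadjusted p under 0.05) and 7 with DESeq2. They numbered 0 to 2 when 1 library was left out. The log2 fold change of Il25 turned to 0.12 without Het1 and 0.17 without Ko1 (range over left-out libraries -0.30 to 0.17), and that of Il33 to -0.41 with edgeR, -0.40 with DESeq2 and -0.68 without Het2 (range -0.68 to 1.32); the cause was not tested. The other 8 genes kept their direction in all 17 alternatives run.

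Columns with the same number did not deviate together (r = 0.05, 0.04 and -0.02 for numbers 1, 2 and 3), and the titles share no number between groups, so the block is a check of the columns only. The least read of the 10 genes had 196 reads in a group. Ptgs1 was called without Het1 and not without any other single library.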
